A study of Mus musculus with 3 samples.

Results

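The genes described here encode the 3 TGF-beta ligands (Tgfb1, Tgfb2 and Tgfb3), their receptors (Tgfbr1, Tgfbr2 and Tgfbr3), the signal transducer Smad3, and a pair of secreted matrix proteins induced by the pathway (Tgfbi and Ctgf, the latter named Ccn2 in RefSeq). Members were found by matching the RefSeq accession of every array probe to these symbols, which gave 9 of the 21153 genes on the array, measured by 13 probes. All 9 could be tested. RNA came from mouse embryoid bodies, which are aggregates of differentiating embryonic stem cells, at day 8 of a cardiac differentiation protocol. On each of 3 two-colour arrays, Hopx-/- embryoid bodies grown with 12.5 µM XAV939, a tankyrase inhibitor that lowers Wnt/β-catenin signalling, were hybridised against Hopx+/- embryoid bodies for which the labels name no inhibitor. Hopx encodes an atypical homeodomain protein of the developing heart.

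Both groups came from embryonic stem cell lines derived from blastocysts, subcultured from single colonies and kept on feeder cells before differentiation. The heterozygous lines also carry 1 mutant Hopx allele, and wild-type embryoid bodies were not analysed here. Both groups were matured in the same medium with VEGF, bFGF, FGF10 and ascorbic acid. The number of lines behind each genotype is not stated in the labels. Genotype and inhibitor differ together between the groups, so their contributions cannot be told apart. Each value below is the log2 ratio of null cultures with inhibitor over heterozygous cultures, and a negative value means less RNA in the null cultures with inhibitor.

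TGF-beta ligands are secreted as latent complexes held in the matrix and are released by integrins and proteases. Active ligand binds the type II receptor, which phosphorylates the type I receptor. That kinase then phosphorylates SMAD2 and SMAD3, which enter the nucleus with SMAD4 and switch on matrix genes and the pathway's own inhibitors. The type III receptor betaglycan presents ligand, TGF-beta 2 above all. In the embryonic heart these signals are known for driving the change of endocardial cells to cushion mesenchyme and for epicardial development.

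The direction of every ratio is likely and not settled. The labels place null RNA in Cy5 on all 3 arrays, yet the ratios of array 3 correlated with those of arrays 1 and 2 at -0.79 and -0.89 before it was turned, and the authors' own values for array 3 have the opposite sign. Array 3 was therefore turned. After turning, the targeted gene Hopx stood 6.54-fold below its heterozygous level by the brighter of its 2 probes (log2 ratio -2.71 ± 0.05, SD, n = 3; adjusted p = 2.03e-07; -2.02 with local backgrounds marked as outliers kept as deposited). The fall kept its call in all 14 alternatives with array 3 turned, which include the mean over both probes (range -3.03 to -2.02). The labels do not say which exons the mutant allele lacks, so the position of either probe relative to the deletion is unknown. Under the opposite orientation all signs change, and 7 of the 9 genes would be higher and 1 lower. The median SD over the 3 arrays was 0.17 across genes, and 56.6% to 68% of probes in each channel stood well above background. The labels call the arrays biological replicates. The p-values come from limma, which combines each gene's spread between these 3 arrays with a variance pooled over all genes. The pooled part supplies 6.66 of the 8.66 degrees of freedom.

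Of the 9 genes, 7 fell, 1 rose and 1 did not pass the test at an adjusted p below 0.05 (limma, adjusted over 14710 genes). Among all tested genes 33.0% fell and 31.5% rose by the same rule, so 64.5% changed in one direction or the other. How many of all tested genes have groups that do not overlap was not counted, so statements of overlap below describe single genes only. The median ratio of the 9 genes was -0.69, against -0.01 for all tested genes. Both Tgfbr3 and Tgfb2 fell by more than 1 on the log2 scale, which 9.56% of all tested genes did, and none of the 9 rose by that much (7.78% of all tested genes did). Counted by probe, 10 of the 13 fell, 1 rose and 2 did not pass, beside 31.4% of all tested probes that fell and 28.7% that rose. Median centring in place of loess kept all 9 signs but left 3 of the 7 falls past the threshold, those of Tgfb1, Tgfb2 and Tgfbr3. In bulk cultures, fewer cells of a type and less RNA per cell cannot be told apart.

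**Figure D1:**
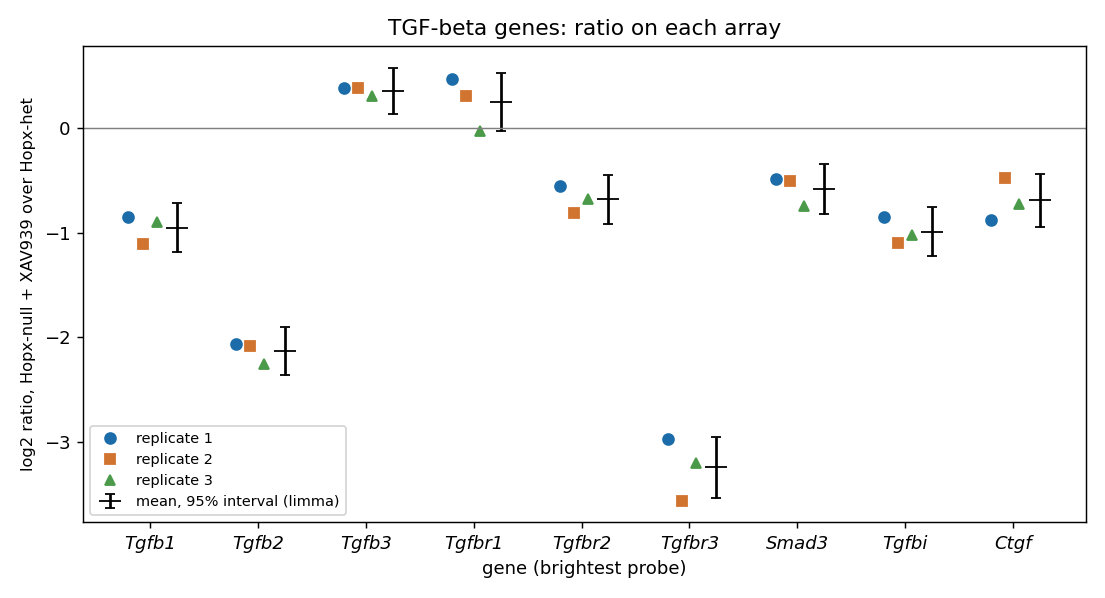
Log2 ratio of Hopx-null cultures with XAV939 over Hopx-heterozygous cultures (vertical axis) for the brightest probe of each of the 9 genes (horizontal axis), 1 symbol per array, with the mean and its 95% interval from limma. Tgfbr3 and Tgfb2 lie lowest, near -3.25 and -2.13, Tgfb3 lies above 0 on all 3 arrays, and the interval of Tgfbr1 reaches from -0.02 to 0.53.

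The 3 ligands did not move together: Tgfb2 and Tgfb1 fell, and Tgfb3 rose slightly. The stretches of 250 bases upstream of the starts of the pair that fell are printed to show their base composition and the motif match in one of them. Both are RefSeq sequences on GRCm38.p6, written 5′ to 3′ along the gene. Capitals mark CAGACA, a form of the CAGA box that SMAD3 and SMAD4 can bind.
Tgfb1, chr7:25686752-25687001, plus strand: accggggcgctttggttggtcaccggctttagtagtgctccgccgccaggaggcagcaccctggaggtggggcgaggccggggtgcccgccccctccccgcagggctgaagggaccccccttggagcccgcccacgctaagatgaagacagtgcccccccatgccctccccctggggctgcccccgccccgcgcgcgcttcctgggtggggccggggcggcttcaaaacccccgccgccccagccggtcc
Tgfb2, chr1:186705990-186706239, minus strand: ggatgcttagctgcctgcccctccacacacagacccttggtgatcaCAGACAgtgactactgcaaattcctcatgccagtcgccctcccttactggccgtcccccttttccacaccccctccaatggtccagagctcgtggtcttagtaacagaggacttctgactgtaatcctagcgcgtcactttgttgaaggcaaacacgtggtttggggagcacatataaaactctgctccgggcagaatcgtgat
The Tgfb1 stretch was 75.2% G and C and the Tgfb2 stretch 53.6%. Over promoter windows of 300 bases (250 before the start and 50 after), CAGACA on either strand occurred in 21% of 32851 mouse windows. It occurred in 2 of the 7 windows that 6 of the 9 genes have, at -204 to -199 from the start of Tgfb2 and in a window of Tgfbr1 given with the receptors. Motifs GTCTAGAC (a SMAD palindrome), CATTCC (bound by TEAD factors) and TGANTCA (bound by AP-1), searched on both strands, occurred in 0 of the 7 windows and in 0.213%, 14.7% and 7.81% of all windows. CAGACA shares no full match with the other motifs. These are matches of letters only. Tgfb3, Tgfbr3 and Ctgf have no window, so their promoters were not searched for any of the motifs.

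Tgfb2, the ligand best known from heart cushion development, had normalized log2 signals of 13.15, 13.43 and 13.22 in the heterozygous cultures on arrays 1 to 3. In the null cultures with inhibitor they were 11.09, 11.35 and 10.96. The groups lay far apart beside the spread within either. The ratios of -2.06, -2.08 and -2.25 averaged -2.13 ± 0.10 (SD, n = 3), a 4.39-fold fall with an adjusted p of 5.68e-07. Only 1.58% of tested genes had a lower ratio. A dimmer probe for Tgfb2 gave -1.76 ± 0.12 and also fell (adjusted p = 2.44e-06 over all probes).

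Tgfb1, the ligand most widely expressed in blood and endothelial cells, gave 9.42, 9.46 and 9.44 in the heterozygous cultures and 8.57, 8.35 and 8.54 in the null cultures with inhibitor, on the same log2 signal scale. The groups stood apart with little spread inside either. The mean ratio was -0.95 ± 0.14 (SD, n = 3), a 1.93-fold fall (adjusted p = 5.81e-05). Its probe is printed at 10 spots on each array, and the single-spot ratios ran from -1.34 to -0.62, all below 0.

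Tgfb3, a ligand known for palate fusion, went the other way and by less. Its log2 signals were 8.22, 8.31 and 8.16 in the heterozygous cultures and 8.61, 8.70 and 8.47 in the null cultures with inhibitor. The groups did not overlap, although the highest heterozygous and the lowest null value lay close. The mean ratio of 0.36 ± 0.04 (SD, n = 3) is a 1.28-fold rise (adjusted p = 0.0101), and its 10 spots per array gave 0.09 to 0.53. Leaving out replicate 1 ended the call (0.35, adjusted p = 0.0756), as did leaving out replicate 2 (0.35, adjusted p = 0.0937), among adjusted p-values of 0.00211 to 0.178 over the 14 alternatives that keep array 3 turned. It was lost as well with marked local backgrounds kept (0.23), with the authors' values (0.24) and with median centring (0.42).

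**Figure D2:**
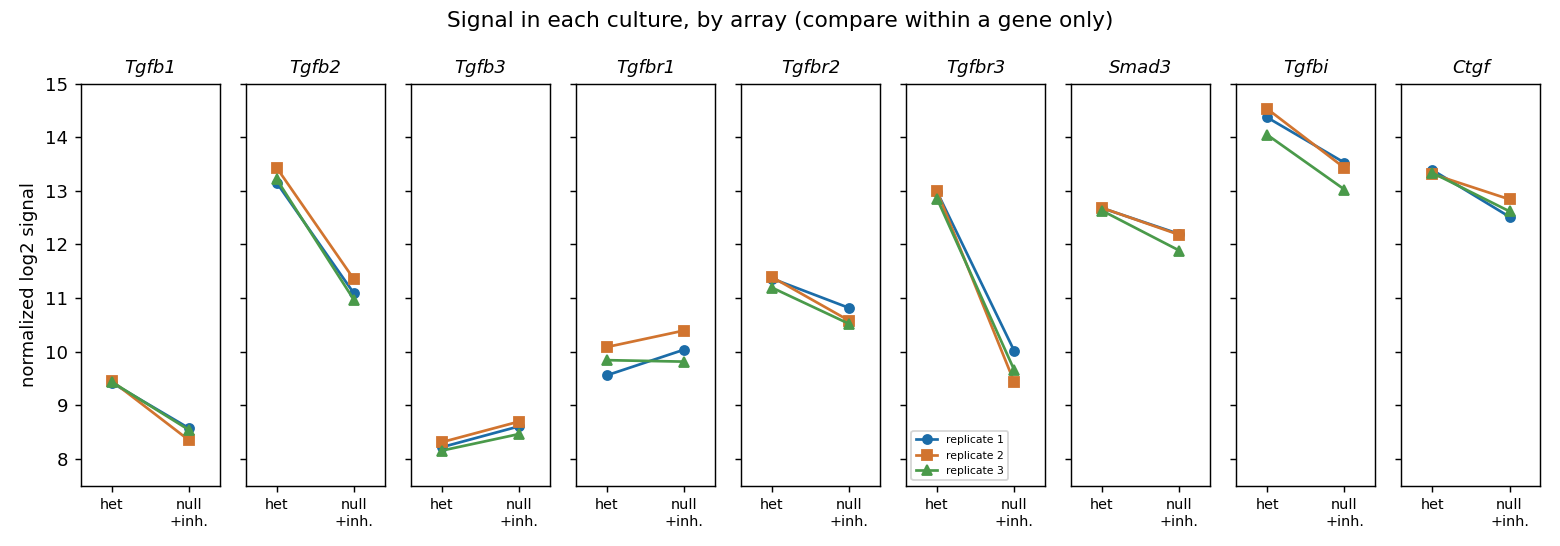
Normalized log2 signal of each of the 9 genes (vertical axis) in heterozygous cultures (het) and null cultures with inhibitor (null +inh.), with a line joining the samples of 1 array. All 3 lines fall for 7 genes, all 3 rise for Tgfb3, and Tgfbr1 has lines in both directions; signals of different genes come from different probes and are not comparable.

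Of the receptors, the co-receptor Tgfbr3 fell most, the type II receptor Tgfbr2 fell moderately, and the type I receptor Tgfbr1 had no settled change. Tgfbr3 (betaglycan) binds ligand without a kinase of its own. Its log2 signals were 12.99, 13.00 and 12.86 in the heterozygous cultures and 10.01, 9.43 and 9.66 in the null cultures with inhibitor. The groups were separated by far more than the spread within either. The ratios of -2.97, -3.57 and -3.20 averaged -3.25 ± 0.30 (SD, n = 3), a 9.5-fold fall (adjusted p = 2.8e-07). Only 48 of the tested genes, 0.326%, had a lower ratio.

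Tgfbr2, the receptor kinase that binds ligand first, gave 11.37, 11.39 and 11.20 in the heterozygous cultures and 10.82, 10.58 and 10.52 in the null cultures with inhibitor. The groups did not overlap. The mean log2 ratio was -0.68 ± 0.13 (SD, n = 3), 1.6-fold lower (adjusted p = 0.000429). Its dimmer probe gave -1.27, -1.36 and -1.12, a 2.38-fold fall (adjusted p = 1.46e-05 over all probes). That probe read 7.91, 7.92 and 8.10 in the heterozygous cultures and 6.64, 6.57 and 6.98 in the null cultures with inhibitor. The size of the fall thus differed between probes while its direction did not. With median centring the brighter probe gave -0.47 and did not pass (adjusted p = 0.146, the highest of 14 alternatives whose lowest was 2.83e-05).

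Tgfbr1, the kinase that phosphorylates SMAD2 and SMAD3, has a pair of windows in RefSeq, which are shown because the second alone of them holds CAGACA (capitals). Both are the 250 bases upstream of an annotated start on GRCm38.p6, 5′ to 3′ along the gene.
Tgfbr1 first window, chr4:47352972-47353221, plus strand: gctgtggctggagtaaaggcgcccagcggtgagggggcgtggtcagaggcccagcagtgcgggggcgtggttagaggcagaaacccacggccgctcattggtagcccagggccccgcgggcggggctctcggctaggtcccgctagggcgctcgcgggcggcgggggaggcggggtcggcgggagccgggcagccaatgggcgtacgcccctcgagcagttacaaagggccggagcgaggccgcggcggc
Tgfbr1 second window, chr4:47385966-47386215, plus strand: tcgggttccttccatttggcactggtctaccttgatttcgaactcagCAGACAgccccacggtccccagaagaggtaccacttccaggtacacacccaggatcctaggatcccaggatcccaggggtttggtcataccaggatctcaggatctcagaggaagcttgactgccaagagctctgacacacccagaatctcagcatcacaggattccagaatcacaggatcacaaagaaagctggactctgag
The first is 74.8% G and C and the second 52.8%, and the match lies at -203 to -198 from the second start. The arrays do not say which start was used.

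In signal, Tgfbr1 was at 9.56, 10.09 and 9.84 in the heterozygous cultures and 10.04, 10.40 and 9.82 in the null cultures with inhibitor. The groups overlapped. The ratio was above 0 on arrays 1 and 2 (0.48 and 0.31) and slightly below on array 3 (-0.03). The mean of 0.25 ± 0.26 (SD, n = 3; interval -0.02 to 0.53) did not pass (adjusted p = 0.0939). Without replicate 3 it was 0.39 and passed as a rise (adjusted p = 0.00355, the lowest of 14 alternatives whose highest was 0.586). The dimmer probe read the other way, at -0.63, -0.69 and -0.25, and passed as a fall of 0.52 ± 0.24 (adjusted p = 0.00452 over all probes), although its null signal was well above background on 2 of the 3 arrays. The mean over both probes was -0.13. Which transcripts each probe reads was not tested.

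**Figure D3:**
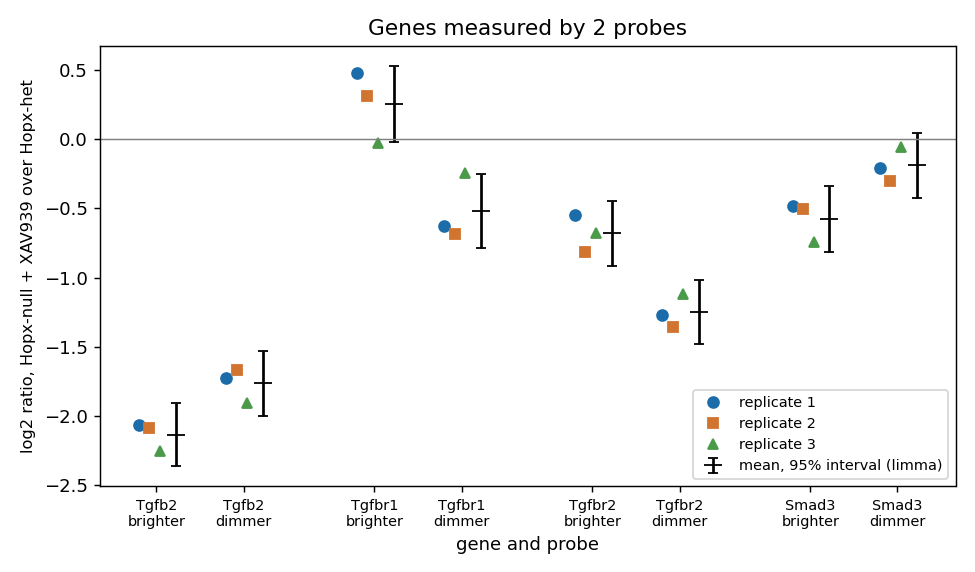
Log2 ratio, null cultures with inhibitor over heterozygous (vertical axis), for the 4 genes with 2 probes (horizontal axis, brighter and dimmer), 1 symbol per array with the mean and its 95% interval. Both Tgfb2 probes and both Tgfbr2 probes lie below 0, those of Tgfbr1 lie on opposite sides of 0, and the interval of the dimmer Smad3 probe reaches from -0.42 to 0.04.

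Smad3, which carries the receptor's signal to DNA, fell slightly by its brighter probe. Its log2 signals were 12.68, 12.68 and 12.63 in the heterozygous cultures and 12.19, 12.18 and 11.89 in the null cultures with inhibitor, with no overlap. The mean ratio of -0.58 ± 0.15 (SD, n = 3) is a 1.49-fold fall (adjusted p = 0.00119). The dimmer probe gave -0.21, -0.30 and -0.06, and its mean of -0.19 ± 0.13 did not pass (adjusted p = 0.141 over all probes). Its signals were far lower, at 6.90, 6.73 and 6.76 in the heterozygous cultures and 6.69, 6.42 and 6.70 in the null cultures with inhibitor. With median centring the brighter probe gave -0.30 and did not pass either (adjusted p = 0.408, the highest of 14 alternatives whose lowest was 5.56e-05).

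Both matrix targets fell. Tgfbi, a secreted adhesion protein that binds collagen and integrins, is shown with the 250 bases upstream of its start (GRCm38.p6, 5′ to 3′ along the gene), since it is the target with a window; it holds no match to the 4 motifs.
Tgfbi, chr13:56609336-56609585, plus strand: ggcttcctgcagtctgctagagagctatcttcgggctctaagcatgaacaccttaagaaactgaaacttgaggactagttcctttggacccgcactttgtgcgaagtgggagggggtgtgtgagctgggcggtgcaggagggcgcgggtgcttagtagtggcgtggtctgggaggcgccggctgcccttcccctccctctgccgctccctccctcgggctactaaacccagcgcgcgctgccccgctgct
Its log2 signals were 14.37, 14.53 and 14.05 in the heterozygous cultures and 13.53, 13.43 and 13.03 in the null cultures with inhibitor. Every null value lay below every heterozygous value. The mean ratio of -0.99 ± 0.13 (SD, n = 3) is a 1.99-fold fall (adjusted p = 4.52e-05).

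Ctgf, a matrix-associated growth regulator that responds to both TGF-beta and YAP, gave 13.39, 13.32 and 13.34 in the heterozygous cultures. In the null cultures with inhibitor it gave 12.52, 12.84 and 12.62. The groups did not overlap, and array 2 had the smallest difference. The ratios of -0.88, -0.47 and -0.72 averaged -0.69 ± 0.20 (SD, n = 3), a 1.61-fold fall (adjusted p = 0.000627). With median centring neither target passed: Tgfbi gave -0.67 (adjusted p = 0.0573) and Ctgf gave -0.39 (adjusted p = 0.266). The lowest adjusted p over the 14 alternatives was 5.21e-06 for Tgfbi and 0.00013 for Ctgf.

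**Figure D4:**
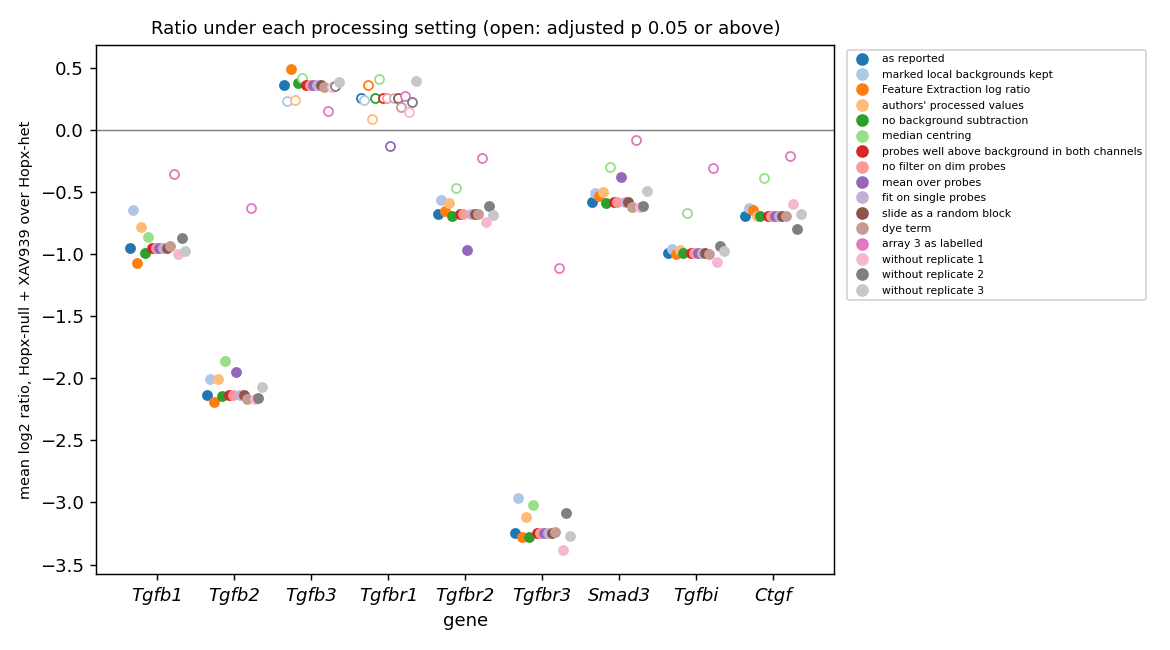
Mean log2 ratio, null cultures with inhibitor over heterozygous (vertical axis), of each of the 9 genes (horizontal axis) under each processing setting, with open points where the adjusted p was 0.05 or above. The points of Tgfb2 and Tgfbr3 are filled in all settings that turn array 3, between -2.19 and -1.86 for Tgfb2 and between -3.38 and -2.96 for Tgfbr3; with array 3 as labelled no gene has a filled point.

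Other genes of the pathway were taken from 4 lists written from general knowledge, 63 genes in all, of which 60 could be tested. Together 11 rose (18.3%) and 27 fell (45%), with a median of -0.20. Among all tested genes 31.5% rose and 33.0% fell, and the counts of each list are to be read beside these shares. Most of the falls lay in the list of other targets and matrix genes.

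In the latency list, which holds the proteins that store and release ligand, 13 of 15 genes could be tested, 4 rose and 2 fell (median 0.15). These are 30.8% and 15.4% of the tested genes in the list, beside 31.5% and 33.0% of all tested genes. Nrros, which tethers latent TGF-beta 1 on myeloid cells, rose 2.1-fold (1.07 ± 0.18, adjusted p = 3.84e-05). The latent ligand binding proteins split: Ltbp4 rose by 0.89 ± 0.28 and Ltbp1 by 0.53 ± 0.18, while Ltbp3 fell by 0.85 ± 0.14 (adjusted p = 0.000259, 0.00255 and 0.000119). Furin, the protease that cuts the ligand precursor, fell by 0.48 ± 0.06 (adjusted p = 0.00231), a call lost with marked local backgrounds kept (adjusted p = 0.0578) and with median centring (adjusted p = 0.315, the highest of 14 alternatives whose lowest was 0.000366). Lrrc32, which anchors latent ligand at the cell surface, rose by 0.32 ± 0.09 (adjusted p = 0.0209), a call lost without replicate 1, without replicate 2, with marked backgrounds kept, with the authors' values and with median centring (adjusted p from 0.00604 to 0.202 over the 14 alternatives). With marked backgrounds kept the Ltbp1 rise was lost too (adjusted p = 0.0573, the highest of 14 whose lowest was 0.000261). The integrin subunits Itgb6 and Itgb8, partners that activate latent ligand, were too dim to test.

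Of 7 accessory receptor genes tested among 8, 1 rose and 3 fell (median 0.05). The shares were 14.3% and 42.9%, beside 31.5% and 33.0% of all tested genes. Dab2, an endocytic adaptor that binds TGF-beta receptors and SMADs and is also abundant in extraembryonic endoderm, fell 12.9-fold, with ratios of -3.18, -3.73 and -4.16 (adjusted p = 4.73e-07). Vasn, whose product binds TGF-beta, fell by 1.76 ± 0.29 (adjusted p = 4.8e-06), and its second probe by 0.48. The endothelial receptors differed: Acvrl1 fell by 0.86 ± 0.22 (adjusted p = 0.000202), while Eng rose by 0.34 ± 0.25 (adjusted p = 0.0303). The Eng call was lost when any 1 of the 3 replicates was left out and under 4 other settings, and its adjusted p ran from 0.000755 to 0.361 over the 14 alternatives.

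All 16 genes of the SMAD and regulator list were tested, and 4 rose and 4 fell (median -0.09). Each share of 25% lies below that of all tested genes (31.5% rose and 33.0% fell). Smad7, the inhibitory SMAD that the pathway itself induces, fell 2.16-fold (-1.11 ± 0.26, adjusted p = 5.67e-05). The ubiquitin ligases Nedd4l and Smurf1, which mark SMADs and receptors for degradation, fell by 1.18 ± 0.11 and 0.74 ± 0.08 (adjusted p = 1.5e-05 and 0.000197). Zfyve9, the anchor that brings SMADs to the receptor, fell by 0.53 ± 0.16 (adjusted p = 0.00205), a call lost with marked backgrounds kept (-0.28, adjusted p = 0.0904) and with median centring (-0.50, adjusted p = 0.089), the lowest of 14 alternatives being 0.000344. In contrast Pmepa1, an inhibitor that sequesters SMADs and is itself a TGF-beta target, rose 3.23-fold by its brighter probe (1.69 ± 0.26, adjusted p = 4.82e-06), and its second probe gave 1.099 (adjusted p = 5.98e-05 over all probes). The size for Pmepa1 depended on the background treatment: the brighter probe gave 0.95 with marked local backgrounds kept and 2.58 by the Feature Extraction log ratio. The co-repressors Tgif1 and Tgif2 rose by 0.73 ± 0.26 and 0.50 ± 0.33, and the deubiquitinase Usp15 by 0.70 ± 0.23 (adjusted p = 0.000685, 0.00977 and 0.000665). The Tgif2 call was lost with marked backgrounds kept (adjusted p = 0.162), with the authors' values (0.31, adjusted p = 0.136) and with median centring (adjusted p = 0.0778), the lowest of 14 alternatives being 0.000277. With marked backgrounds kept the Smurf1 fall was 0.46 and still passed (adjusted p = 0.0476).

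The SMADs that act beside Smad3 did not pass. Smad2 had a mean ratio of -0.23 ± 0.17 (adjusted p = 0.0938), and without replicate 3 it passed as a fall (-0.33, adjusted p = 0.00757, the lowest of 14 alternatives whose highest was 0.79). Smad4 gave 0.28, 0.25 and -0.41 on the 3 arrays, so array 3 stood apart. Its mean was 0.04 ± 0.39 (adjusted p = 0.827), and without replicate 3 it passed as a rise (0.26, adjusted p = 0.02, the lowest of 14 alternatives whose highest was 0.943).

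All 24 genes of the list of other targets and matrix proteins were tested, of which 18 fell and 2 rose, with a median of -0.77. That is 75% and 8.33%, beside 33.0% and 31.5% of all tested genes. By more than 1 on the log2 scale 11 fell, against 9.56% of all tested genes. Taking the brightest probe of each gene, the largest fall was that of Col1a1, the main chain of type I collagen, at 7.01-fold (-2.81 ± 0.38, adjusted p = 8.38e-07). Its partner chain Col1a2 fell by less, 1.76-fold, with ratios of -0.13, -1.08 and -1.23 on arrays 1 to 3 (adjusted p = 0.00505). Col3a1 did not pass (-0.12). Loxl2, a collagen cross-linking enzyme, fell 4.43-fold by its brightest probe and further by its other probes (-2.65 and -3.18). Postn, a matrix protein of cushion mesenchyme, fell by 2.14 ± 0.49 (adjusted p = 8.4e-06), or by 1.52 with marked backgrounds kept. Sparc, a collagen-binding glycoprotein, fell 4.78-fold by its brightest probe, which was saturated in the heterozygous sample of 1 array, while its other probes gave -0.99 and -0.22, the last not passing (adjusted p = 0.108 over all probes). Its fold is therefore uncertain.

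The immediate target Ccn1, a relative of Ctgf, fell 3.25-fold (-1.70 ± 0.10, adjusted p = 1.82e-06). Both genes that rose lie outside the matrix: Cdkn2b, a cell cycle inhibitor, rose 2.74-fold by its brighter probe (1.45 ± 0.19, adjusted p = 6.89e-06) and by 0.49 on the log2 scale by its other probe, and Tagln, an actin-binding protein of smooth muscle, rose by 0.59 ± 0.03 (adjusted p = 0.000695). With marked local backgrounds kept the brighter Cdkn2b probe gave 0.97, and median centring gave 0.94 for Tagln. The known targets thus moved in different directions in the same samples.

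**Figure D5:**
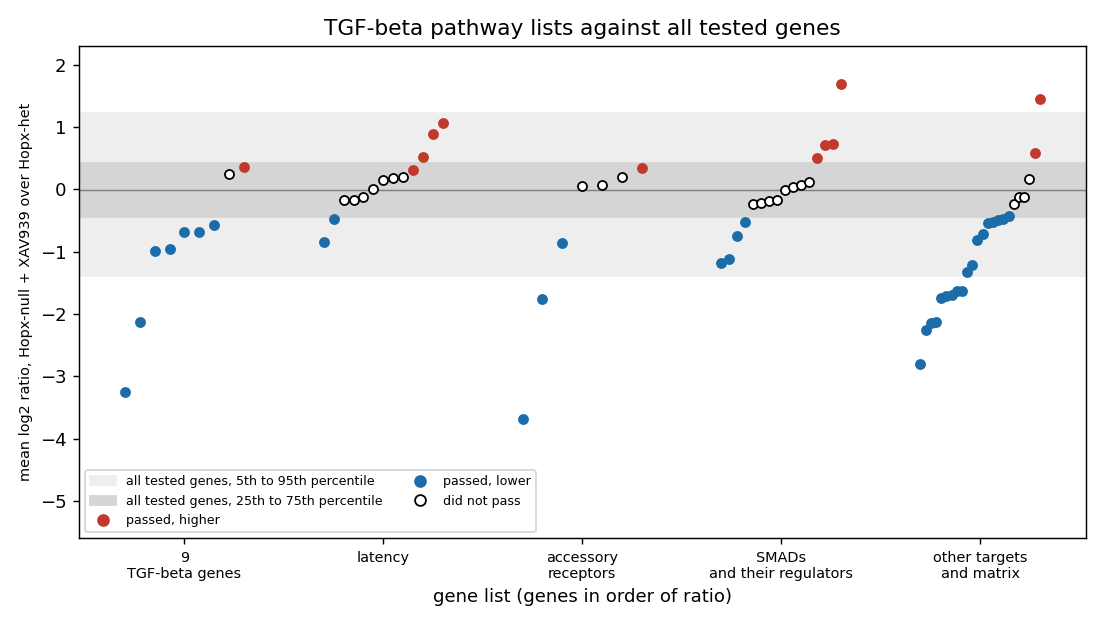
Mean log2 ratio, null cultures with inhibitor over heterozygous (vertical axis), of every tested gene of the 9-gene group and of the 4 pathway lists, in order of ratio within a list (horizontal axis), over grey bands for all tested genes. In the last list 18 of 24 genes passed as lower and 2 as higher, while the SMAD list has 4 of each. Among all tested genes 33.0% passed as lower and 31.5% as higher.

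Markers of several cell types moved with these genes, and their counts are to be read beside the 31.5% of all tested genes that rose and the 33.0% that fell. A summed signal adds probes of different brightness, so it follows the brightest markers of its list and is compared only between the groups, not between lists. All 7 endoderm markers fell, and their summed linear signal was 71081 to 82073 in the heterozygous cultures and 3774 to 7643 in the null cultures with inhibitor. All 8 cardiomyocyte markers fell, from 153621 to 170641 down to 46739 to 61247, so heart muscle markers were present in both groups. Of 9 tested mesenchyme or fibroblast markers, which feeder cells would share, 4 fell and 3 rose. Their sum was 12814 to 15936 against 5978 to 7542. Dpt was not well above background in either group and Meox1 not in the heterozygous one.

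All 7 pluripotency or epiblast markers rose, with sums of 12520 to 17375 in the heterozygous cultures and 86313 to 122793 in the null cultures with inhibitor. Of 6 endothelial markers 4 rose and 1 fell (4307 to 5133 against 7102 to 8531), and of 5 tested platelet or blood markers 4 rose (33850 to 47652 against 48506 to 70189). The blood sum is led by Hbb-bh1, whose ratios were 0.66, -0.04 and 0.55 on the 3 arrays. Hba-x did not pass, and Ptprc was not well above background in the null cultures with inhibitor. In the smooth muscle list 2 of 4 tested markers fell and 1 rose (68174 to 74169 against 45630 to 60595, a sum led by Acta2, which was saturated in the null sample of 1 array), while Myh11 and Lmod1 were not well above background in either group. Of 3 tested neural markers only Tubb3 rose (3.48 ± 0.25), while Sox1 (0.32) and Dcx (0.07) did not pass. The neural sum of 514 to 574 against 2163 to 2533 therefore mostly follows Tubb3, and it includes Pax6 and Neurog2, which were not well above background in the heterozygous group. The part of these cell types in the TGF-beta ratios was not tested.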

How the data were processed

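Median spot and background signals are deposited as intensity values, extracted with Agilent Feature Extraction (version 11.5.1.1 per the file headers, 8.5.1.1 in the submitters' processing notes). Per the file headers the scanner software also deposited a log10 ratio, Cy5 over Cy3. The values processed by the authors were taken as log2 ratios. Their correlation with the log2 Cy5 over Cy3 ratios of median signals, without background correction, was 0.885, 0.945 and -0.94 on arrays 1 to 3. A correlation shows direction and not scale. In size, Tgfb2 gave a mean of -2.01 from the authors' values and -2.13 as reported. How the authors' values were centred is not stated (medians of the columns 0.086, -0.08 and 0.053). The signal, outlier and background marks used are other columns deposited as 0 or 1.

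Background correction used normexp with an offset of 50, followed by loess within each array in limma 3.58.1 (R 4.3.3), with control spots at weight 0 and outlier spots left out. Local backgrounds marked as outliers were replaced by the channel's median of unmarked ones, a choice made with the data known. Signals per channel were scaled with Aquantile. Spots were averaged per probe. Tested probes stood well above background in 1 channel or both on all 3 arrays, and the brightest of them represented each gene. Of 39429 probes, 28025 matched 1 RefSeq symbol. The mean ratio was compared with 0 (lmFit and eBayes, 8.66 degrees of freedom), with Benjamini-Hochberg adjustment over 14710 genes and a threshold of 0.05; probe p-values were adjusted over 24384 probes.

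The 9 genes, the pathway lists and the markers were chosen with earlier results of these data known. Named genes were all 9 listed ones, up to 4 per pathway list and direction by size of ratio among those that passed, a few named whatever their values (Smad2, Smad4, Smad7, Eng, Ccn1) and Hopx; 1 further gene is not reported here. Col1a2 and Col3a1 were added beside Col1a1 after their values were seen and are not counted among the named genes. Arrays 2 and 3 shared a slide, and array 1 was on its own. Alternatives were other background corrections, other scaling, the authors' values, other probe filters and summaries, the slide as a block, a dye term, array 3 as labelled, a minimum ratio of 1 and each replicate left out.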

Additional observations from a re-analysis of the deposited data

How the results depend on the processing

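With array 3 turned, 482 of 518 values of the 37 named genes kept their direction and their side of the threshold over 14 alternatives, 29 lost the call, 3 gained one and 4 changed sign. Some alternatives reuse the reported ratios for genes such as Tgfb1 and Tgfbr3: the slide as a block, the fit on single probes and other probe filters. The count thus includes values whose direction could not change. Tgfb1, Tgfb2, Tgfbr3 and Hopx kept their calls in all 14. The changes of sign were Tgfbr1 as the mean over probes (-0.13) and Smad4 with a dye term (-0.072) and without replicate 1 or 2 (leave-one-out range -0.079 to 0.26).

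Of the 9 genes, the number that rose (1) was 0 with marked local backgrounds kept, with the authors' processed values, with median centring, with array 3 as labelled and at a log2 ratio of 1 or more, and 0 to 2 with a replicate left out. The number that fell (7) was 3 with median centring, 0 with array 3 as labelled and 2 at a log2 ratio of 1 or more. In the 4 pathway lists, the number that rose (11) was 7 with marked backgrounds kept, 0 with array 3 as labelled and 3 at a log2 ratio of 1 or more; the number that fell (27) was 0 and 15 under the latter pair. With marked backgrounds kept, Tgfb3, Ltbp1, Furin, Zfyve9, Lrrc32, Tgif2 and Eng lost their calls; the cause was not tested.

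Among all tested genes, 4636 rose and 4850 fell; the counts were 2669 and 2260 with marked backgrounds kept, 3039 and 2023 with median centring, 0 and 0 with array 3 as labelled and 1145 and 1406 at a log2 ratio of 1 or more. Median centring moved the median of all genes by 0.107 and the share of higher calls from 48.9% to 60%. Relative to the median of all genes, the values as reported and with median centring were -0.94 and -0.96 for Tgfb1, -2.12 and -1.95 for Tgfb2, 0.37 and 0.32 for Tgfb3, 0.26 and 0.31 for Tgfbr1, -0.67 and -0.57 for Tgfbr2, -3.24 and -3.12 for Tgfbr3, -0.57 and -0.39 for Smad3, -0.98 and -0.76 for Tgfbi, and -0.68 and -0.48 for Ctgf. With array 3 as labelled, limma gave 13 rises and 27 falls at an unadjusted p under 0.05, and Eng (-0.074) and Tgif2 (-0.054) changed sign. The slide as a random block gave the same fit as reported, because its correlation, estimated from variances pooled over genes, was 0. That fit is therefore no check of a slide effect. The test was paired within arrays, since each array sets its null sample against its heterozygous one. The number of arrays limits precision.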

Other observations

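Some other pathway genes, chosen after their values were seen, had probes that differed. Smurf2, a ubiquitin ligase of SMADs and receptors, did not pass by its brightest probe (-0.17) but fell by its other probes (-0.92 and -0.26, adjusted p = 0.000138 and 0.042 over all probes, limma). Itgav, the integrin chain that pairs with activators of latent ligand, did not pass by its brightest probe (-0.13), while its second probe fell (-0.62, adjusted p = 0.00102). Fbn2, of the latency list, went the other way: its brightest probe did not pass (0.15), while its second probe rose (0.29, adjusted p = 0.0281). Among the 3801 genes with several tested probes, 199 had probes that passed in opposite directions. Smurf2, Itgav and Fbn2 are not of that kind. How many of all genes have a brightest probe that fails beside another that passes was not counted.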
